A study of Mus musculus with 8 samples.

Results

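Cycling medullary thymic epithelial cells (mTEC) of the adult thymus were selected on measured UMI counts, as the cells of both adult mTEC libraries with at least 3 unique molecular identifiers (UMIs) of Top2a and Mki67 together. They also had to hold at most 5% of their UMIs in mitochondrial genes and at most 5000 detected genes. Top2a encodes the topoisomerase that untangles replicated DNA, and Mki67 a protein that coats the chromosomes of dividing cells. The rule took 627 of the 7201 adult mTEC within those limits, 100 from adult mTEC replicate 1 and 527 from replicate 2, out of 25750 cells in the 8 libraries of the series. Within each library they were compared with the cells in which both genes were at 0, here called resting, which numbered 1321 in replicate 1 and 3703 in replicate 2. The 165 and 1385 cells with 1 or 2 UMIs of the pair entered neither class.

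The mTEC came from the thymus of adult WT mice of strain C57 B6 (CD45.2) and were sorted as DAPI- EpCAM+ CD45- with no Ly51 and with binding of the lectin UEA-1. The cells set beside them were cortical TEC (cTEC) of the same strain and genotype at E15.5, E17.5 and in newborn (NB) mice, sorted as Ly51+ and UEA-1-, with 1 library at each age. The labels give no transgene or treatment for any group. The 2 adult mTEC libraries belong to different data sets, and nothing states how many animals gave each library or that they were different animals, so p-values measure only the spread between libraries, which may be technical. That spread comes from these 2 libraries within adult mTEC and from 5 in the comparison with cTEC, and is mostly borrowed across genes. A growth note in the labels names bone marrow as the source, whereas the tissue label of every sample names the thymus. The adult mTEC libraries had 1818 and 7023 barcodes and shared 20 of them.

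mTEC teach developing T cells self-tolerance by displaying proteins of other tissues. Aire and Fezf2 are the transcriptional regulators that let mTEC express such tissue-restricted antigens, while Ccl21a, a chemokine that draws positively selected thymocytes into the medulla, marks an mTEC state with little Aire. Cells past the Aire stage take on cornified, skin-like or tuft-like states. In the cell cycle, D-type cyclins with Cdk4 and Cdk6 open G1, E2F factors switch on the S phase genes, and the MuvB complex with B-MYB and FOXM1 switches on the G2 and mitotic genes, which is why transcripts of the same phase move together.

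The promoters of the genes that mark these cells are shown because the members of a phase share short motifs, as read from RefSeq promoters of build GRCm38.p6 that run from 250 bases before to 50 bases after the start. Capitals mark the motif match nearest to the start, and each window is on the strand of its gene. The cell cycle homology region (CHR, letters TTTGAA), the site of MuvB, is in capitals for the G2 and mitotic genes, the CCAAT box (letters CCAAT, here read from the other strand) for Top2a, and an E2F-like site (letters TTTNNCGC) for S phase genes.
Top2a, chr11:99024231-99024260, minus strand: gagcgagtcggtgATTGGttcctctgattt
Mki67, chr7:135716460-135716489, minus strand: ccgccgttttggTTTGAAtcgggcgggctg
Ube2c, chr2:164769888-164769917, plus strand: ggagggttgcaaTTCAAAcgcgggcggcgg
Ccnb2, chr9:70421533-70421562, minus strand: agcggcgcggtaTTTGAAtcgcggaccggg
Cdk1, chr10:69352910-69352939, minus strand: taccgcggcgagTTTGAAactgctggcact
Mcm5, chr8:75109349-75109378, plus strand: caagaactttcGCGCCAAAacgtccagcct
Mcm6, chr1:128359734-128359763, minus strand: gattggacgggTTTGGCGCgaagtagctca
Pclaf, chr9:65890307-65890336, plus strand: gcttggagcgcGCGGGAAAgagacccattt

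Both strands of each 300-base promoter were searched, and matches of different motifs may share bases. Among the genes of the G2M list with a promoter in the table, 32 of 47 held a CHR (68.1%), against 5 of 31 genes of the S phase list (16.1%) and 18.1% of all 27025 promoters. The E2F-like letters had the opposite distribution, being present in 14 of 31 S phase promoters (45.2%), in 4 of 47 G2M promoters (8.51%) and in 5.27% of all. CCAAT boxes were common to both phases, at 76.6% of G2M and 71.0% of S phase promoters against 37.9% of all. These are matches of letters in a window and not tests of binding.

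The gate selected deep cells. Median UMIs per cycling cell were 17987 in replicate 1 and 20021 in replicate 2, against 8739 and 9849 in resting cells. Cycling cells made up 6.31% of adult mTEC in replicate 1 (exact binomial 95% interval 5.16 to 7.62) and 9.39% in replicate 2 (8.64 to 10.2). Below 10000 UMIs under 1% of cells passed the gate in either library, and from 20000 up to 30000 UMIs 41.8% and 47.7% did. With every cell thinned to 5000 UMIs, 28 of 1453 cells (1.93%) and 166 of 5047 (3.29%) passed. The ceiling of 5000 genes removed 19 of 119 gated cells in replicate 1 (16%) and 257 of 784 in replicate 2 (32.8%), so the most transcript-rich dividing cells are outside the set. Mitochondrial shares were alike, with medians of 3.25% in cycling and 3.15% in resting cells of replicate 1 and 2.28% and 2.24% in replicate 2.

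**Figure D1:**
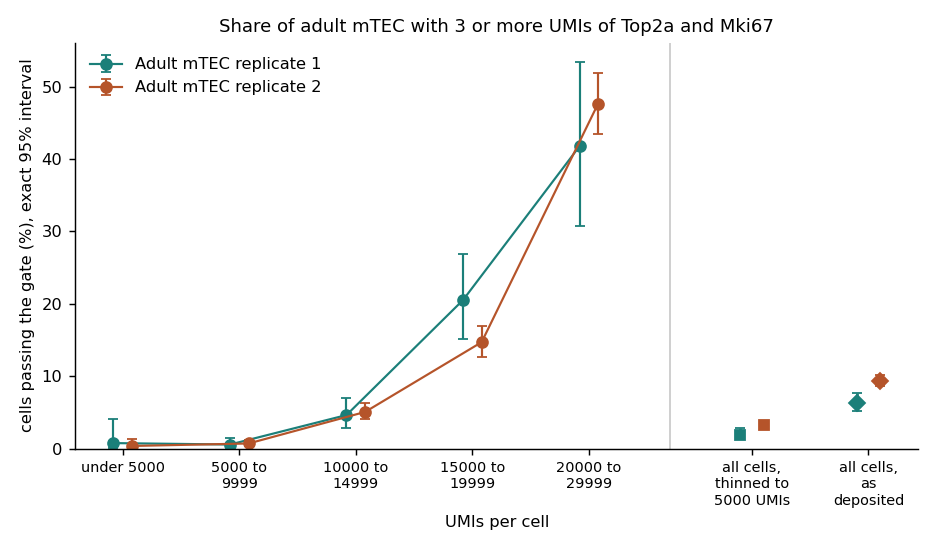
Share of adult mTEC passing the gate (%) by UMIs per cell in each library, with exact 95% intervals and without bands of under 20 cells, and at the right over all cells thinned to 5000 UMIs or as deposited. The share lies below 1% under 10000 UMIs and reaches 41.8% and 47.7% in the deepest band, while over all cells it is 1.93% and 3.29% after thinning and 6.31% and 9.39% before.

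The median sum of Top2a and Mki67 was 6.5 UMIs in the cycling cells of replicate 1 and 7 in those of replicate 2, with highest sums of 23 and 24. Just inside the threshold lay 19 and 117 cells with a sum of 3, and just outside it 31 and 286 cells with a sum of 2. Birc5, which encodes survivin of the chromosomal passenger complex, had a UMI in 78.9% and 53.8% of the cells at 3 and in 48.4% and 31.1% of the cells at 2. Over all members it had a UMI in 88.0% and 81.0%, against 4.01% and 14.7% of resting cells. Ube2c, the ubiquitin-conjugating enzyme of the anaphase-promoting complex, had one in 73.0% and 70.8% of members, against 5% and 18.5% of resting cells. These markers and the other cell cycle lists move with the gate and carry no test here. By the same gate 22.1% of E15.5 cTEC, 10.3% of E17.5 cTEC, 7.07% of NB cTEC and 46.2% of E13.5 TEC were cycling.

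Levels below are CPM, the UMIs of a gene summed over the cells of a class in a library and scaled to the total UMIs by the trimmed mean of M-values (TMM), and changes are log2 fold changes of cycling against resting cells with their standard error from a fit with the library as a block. Of 15703 genes tested with edgeR's quasi-likelihood test, 3794 passed an adjusted p of 0.05 (24.2%), with 1963 higher in cycling cells (12.5%) and 1831 lower (11.7%). The median change over all genes was -0.13, so values near it are no displacement relative to the bulk of genes. Of the called genes, 3792 had the same sign in both libraries, which a call from 2 pairs nearly requires. Over all 15703 genes, 5208 were positive and 7290 negative in both. Resting cells were also matched to the depth of cycling cells, which left 92 and 389 cells with medians of 17811 and 18143 UMIs. The matching fell short in replicate 2, where 527 cycling cells had a median of 20021 UMIs. Against matched resting cells 1740 of 12727 genes passed (13.7%), 1018 higher (8%) and 722 lower (5.67%), and the median over all genes was -0.01. The part of the smaller number of cells in calls that ended was not tested. DESeq2 called 2369 of 13876 genes (17.1%). The balance of directions moved with the gate. It was 1500 higher and 758 lower of 16280 genes with a gate of 2 UMIs, and 2290 higher and 3185 lower of 15299 with a gate of 5. For named genes, values with matched resting cells follow where they end a call or move it by over 1.5 times.

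The cell cycle programme itself was present throughout, as a description of what the gate took. All 43 tested genes of the S phase list had positive log2 fold changes, with a median of 2.505, and so had all 54 of the G2M list, with a median of 3.005. The licensing factors of replication origins had a median of 2.32 over 18 genes and the mitotic kinases and spindle genes one of 3.45 over 26. Rrm2, the small subunit of ribonucleotide reductase, was at 7.73 CPM in resting and 272 CPM in cycling cells of replicate 1 and at 9.76 and 163 CPM in replicate 2. Aurkb, the kinase of the chromosomal passenger complex, went from 1.31 to 75.3 CPM and from 2.01 to 52.5 CPM. Among genes outside the cell cycle lists with an average log2 CPM above 5, those with the highest values were likewise mostly of replication and chromosome segregation. Pclaf, a partner of the replication clamp PCNA, was at 16.4 and 999 CPM in replicate 1 and at 28.5 and 551 CPM in replicate 2 (5.05 ± 0.40). It was followed by the mitotic kinase Pbk (4.95 ± 0.51), the thymidine kinase Tk1 (4.09 ± 0.24), the kinetochore subunits Spc24 (3.49 ± 0.28) and Spc25 (3.32 ± 0.25), the centromere protein Cenpm (3.21 ± 0.23), the lamin Lmnb1 (2.98 ± 0.14), the condensin Smc2 (2.91 ± 0.12), the clamp loader Rfc5 (2.83 ± 0.15) and the DNA ligase Lig1 (2.78 ± 0.21).

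The machinery of G1 and the G1 to S transition rose as well. These genes, and the regulators and inhibitors below, act in the same cycle as the gate genes. The selection on Top2a and Mki67 bears on their levels, so their p-values are not independent of the gate. Of 7 G1 cyclins and kinases, leaving out Ccne2 as a gene of the S phase list, 6 rose, with a median change of 0.85. Against matched resting cells 3 passed and the median was 0.47. Cdk4, the partner of D cyclins, was at 222 CPM in resting and 632 CPM in cycling cells of replicate 1 and at 174 and 490 CPM in replicate 2, so that the classes did not overlap (1.5 ± 0.08, adjusted p = 0.000455). Ccnd1, cyclin D1, was far scarcer, at 65.7 and 84.9 CPM and at 56.5 and 99.8 CPM (0.61 ± 0.14, adjusted p = 0.0268). Its call ended with matched resting cells (0.38, adjusted p = 0.11) and with a gate of 2 UMIs (adjusted p = 0.059). The D cyclin that these cells held in quantity was Ccnd2, singled out after its values were seen, at 605 and 1084 CPM in replicate 1 and at 673 and 1177 CPM in replicate 2 (0.82 ± 0.07, adjusted p = 0.00109). Neither D cyclin overlapped between the classes, but against matched resting cells Ccnd2 was at 0.16 (adjusted p = 0.11).

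Cyclin E and its kinase were among the most raised genes of that list. Ccne1 was at 5.62 and 49.3 CPM in resting and cycling cells of replicate 1 and at 4.93 and 28.8 CPM in replicate 2 (2.80 ± 0.22, adjusted p = 0.000929), and Cdk2 rose by 1.90 ± 0.19 (adjusted p = 0.00187). Among the regulators of the cycle, 7 of 10 E2F, MYB and FOXM1 genes rose, with a median of 1.80 and leaving out E2f8 of the S phase list. Foxm1, which drives mitotic genes, rose by 3.72 ± 0.37, Mybl2, the B-MYB of the MuvB complex, by 3.28 ± 0.34, and E2f1, the activator of S phase genes, by 2.91 ± 0.26.

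The inhibitors of cyclin-dependent kinases split. Of 10 inhibitors and pocket proteins, 3 rose and 3 fell, and the median was -0.01. Cdkn1c, which encodes p57, was at 120 CPM in resting and 14.7 CPM in cycling cells of replicate 1 and at 192 and 51.3 CPM in replicate 2, without overlap (-2.28 ± 0.24, adjusted p = 0.00208). Cdkn1a, which encodes p21, was at 188 and 92.3 CPM and at 252 and 115 CPM (-1.08 ± 0.10, adjusted p = 0.00137), and at -0.40 with matched resting cells (adjusted p = 0.097). Cdkn2d, the INK4 inhibitor p19, moved the other way, from 18.2 to 65.7 CPM and from 17.3 to 52.9 CPM (1.72 ± 0.14, adjusted p = 0.00113), as did the pocket protein Rbl1 (1.61 ± 0.34, adjusted p = 0.020). Rbl1 lost its call with matched resting cells (adjusted p = 0.071) and with a gate of 2 UMIs (adjusted p = 0.064).

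Cycling cells were placed in the medullary lineage by Aire, Fezf2, Ccl21a and Ccnd1. Aire was at 398.5 CPM in resting and 327 CPM in cycling cells of replicate 1 and at 377 and 391 CPM in replicate 2, in opposite directions and with overlapping classes (-0.11 ± 0.10, adjusted p = 0.476). Fezf2 was at 490 and 453 CPM and at 456 and 454 CPM (-0.06 ± 0.08, adjusted p = 0.616). Against matched resting cells, which are deeper, the same genes were at -0.68 (adjusted p = 0.052) and -0.34 (adjusted p = 0.033). The chemokine Ccl21a was at 7172.5 and 1246 CPM in replicate 1 and at 3324 and 1624.5 CPM in replicate 2 (-1.77 ± 0.32, adjusted p = 0.0122), but at -0.28 against matched resting cells (adjusted p = 0.26) and with adjusted p = 0.057 in DESeq2. In replicate 1, 17.2% of the Ccl21a UMIs of cycling cells came from 1 cell.

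The share of cells with an Aire UMI did not follow the summed level, since it was higher in cycling cells of both libraries. After thinning to 5000 UMIs, 67.7% of cycling cells of replicate 1 carried an Aire UMI (57.5 to 76.7), against 43.2% of resting cells (40.3 to 46.0). In replicate 2 the shares were 66.1% (61.9 to 70.1) and 61.1% (59.3 to 62.8). The intervals of cycling and resting cells were apart in replicate 1 and met in replicate 2, and 2 libraries allow no exact test below 0.05. The excess of cycling cells was 24.5 percentage points in replicate 1 and 5.04 in replicate 2, and with 2 Aire UMIs required it was 6.76 and 3.20. For comparison, shares were also taken in resting tuft and Ccl21a-high cells and in adult cTEC. The part of free RNA in them was not tested. Among thinned resting cells such shares were 22.9% and 39.9% in tuft cells and 10.0% and 34.1% in Ccl21a-high cells, and adult cTEC libraries had 1.91% and 0.471%. Without thinning the shares were 80.0% of cycling and 46.5% of resting cells in replicate 1 and 89.9% and 69.7% in replicate 2, an excess of 33.5 and 20.2 points.

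Splitting cells by Aire and by a Ccl21a level of 1329 CPM in replicate 1 and 2228 CPM in replicate 2, with cells of 3 or more tuft gene UMIs set apart, put most cycling cells in the Ccl21a-low, Aire-bearing compartment. It held 64.6% of cycling and 37.4% of resting cells in replicate 1, and 59.8% and 49.6% in replicate 2. The Ccl21a-high compartment without Aire held 14.1% of cycling against 45.8% of resting cells in replicate 1 and 10.3% against 18.2% in replicate 2. Ccl21a-low cells without Aire were 17.2% of cycling (10.3 to 26.1) and 8.79% of resting cells (7.24 to 10.5) in replicate 1, and 21.7% (18.3 to 25.5) and 17.7% (16.4 to 19.1) in replicate 2, with intervals that overlapped in both libraries. Seen from the compartments, 10.5% and 11.9% of Ccl21a-low, Aire-bearing cells were cycling against 2.35% and 6.74% of Ccl21a-high cells without Aire, while Ccl21a-low cells without Aire were cycling at 12.4% (17 of 137) and 12.3% (114 of 925). With the gate itself applied at 5000 UMIs per cell, the first 2 compartments had 2.78% and 3.48% against 1.17% and 2.87%. In Ccl21a-low cells without Aire it was then 1.46% in replicate 1 (2 of 137 cells), below the 1.93% of all cells there, and 4.11% in replicate 2, above the 3.29% of all cells.

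**Figure D2:**
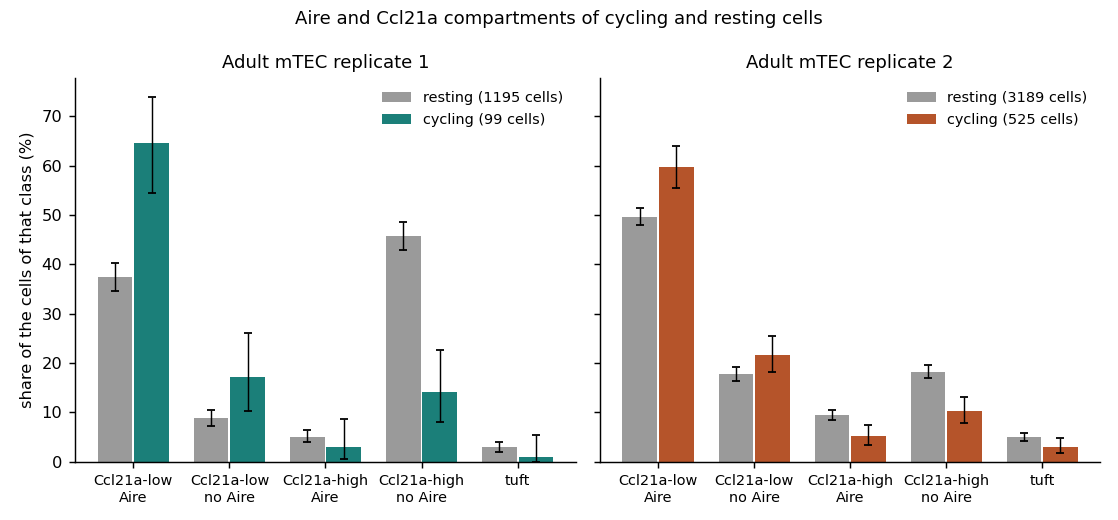
Share of the thinned cells of each class (%) in 5 compartments set by an Aire UMI, the Ccl21a level and tuft genes, with exact 95% intervals, for replicate 1 (left) and replicate 2 (right). Grey bars are resting and coloured bars cycling cells. The Ccl21a-low Aire compartment holds 64.6% and 59.8% of cycling cells, and the Ccl21a-high compartment without Aire 14.1% and 10.3%.

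Programmes of differentiated mTEC were lower in cycling cells. Of the 29 tissue-restricted antigens on the list, 26 fell and none of the rest passed, with a median change of -1.87 against -0.13 over all genes. With resting cells of matched depth 14 of 27 fell, with a median of -1.53. Sst, the hormone somatostatin, was at 20.3 CPM in resting and 1.13 CPM in cycling cells of replicate 1, where cycling cells held 2 UMIs, and at 32.9 and 5.39 CPM in replicate 2 (-2.82 ± 0.29, adjusted p = 0.00199). Chgb, a secretory granule protein, fell by 2.88 ± 0.33 (adjusted p = 0.00271), Ttr, the carrier transthyretin, by 2.78 ± 0.35 (adjusted p = 0.00358) and the neuropeptide Gal by 2.67 ± 0.64 (adjusted p = 0.0297). Ttr had no UMI in cycling cells of replicate 1, and 2 of the 2 Chgb UMIs there came from 1 cell. Gal lost its call with DESeq2 (adjusted p = 0.092) and with matched resting cells (adjusted p = 0.095). With a gate of 2 UMIs the call ended for Sst (-0.83, adjusted p = 0.33), Ttr (-1.77, adjusted p = 0.065) and Gal (-2.24, adjusted p = 0.13).

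The cornified mTEC III list behaved alike, with 11 of 15 genes lower and a median of -1.90. When resting cells were matched on UMIs, 5 of 14 fell, with a median of -1.74. Krtdap, a protein of differentiating keratinocytes, was at 195 and 15.3 CPM in replicate 1 and at 248 and 49.6 CPM in replicate 2 (-2.79 ± 0.28, adjusted p = 0.00186). In replicate 1, 63.0% of its UMIs in cycling cells came from 1 cell. The protease inhibitor Spink5 fell by 2.78 ± 0.29 (adjusted p = 0.00209, and -1.49 with adjusted p = 0.054 against matched resting cells) and the keratin Krt77 by 2.43 ± 0.22 (adjusted p = 0.00133). The cornified envelope gene Cnfn fell by 2.45 ± 0.48 (adjusted p = 0.0155, and 0.29 in DESeq2 and 0.084 with matched resting cells), with no UMI in cycling cells of replicate 1.

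Of 14 tuft cell genes 11 fell, with a median of -1.999. Against matched resting cells 2 of 13 fell, with a median of -1.43. Avil, which encodes the actin-binding advillin of tuft cells, was at 7.81 and 0.566 CPM in replicate 1, the latter from 1 UMI, and at 27.1 and 4.55 CPM in replicate 2 (-2.68 ± 0.29, adjusted p = 0.00233). The leukotriene pathway protein Alox5ap (-2.54) and the G protein subunit Gnb3 (-2.52) passed as well, though not against matched resting cells (adjusted p = 0.062 and 0.084). Gnb3 was also at -0.90 (adjusted p = 0.42) once cells above 5000 genes were let in. The mTEC I list of Ccl21a-high cells had 6 of 10 genes lower and a median of -0.94. With resting cells of matched depth 1 fell, with a median of -0.27. Ly6a, the surface antigen Sca-1, fell by 2.09 ± 0.25 (adjusted p = 0.00306, and -1.06 with matched resting cells), Igfbp5, a binding protein of insulin-like growth factors, by 1.93 ± 0.35 (adjusted p = 0.0125), and the matrix proteoglycan Dcn by 1.77 ± 0.47 (adjusted p = 0.0408). Igfbp5 and Dcn lost their calls with matched resting cells (-0.41, adjusted p = 0.32, and -1.23, adjusted p = 0.15), and Dcn also in DESeq2 (adjusted p = 0.18). In replicate 1, 54.7% of the Ly6a UMIs of cycling cells came from 1 cell. The mTEC II list of Aire-stage cells had 5 of 10 genes lower and a median of -0.18, and 6 lower and -0.53 against matched resting cells.

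Chemokines of the medulla fell in 8 of 13 cases, with a median of -1.48. When resting cells were matched on UMIs, 3 fell, with a median of -0.67. Ccl25, which attracts CCR9-bearing thymocytes, was at 230 and 13 CPM in replicate 1 and at 384 and 66.9 CPM in replicate 2 (-3.05 ± 0.32, adjusted p = 0.00207), and its change against matched resting cells was also -3.05. Ccl6 fell by 2.11 ± 0.20 (adjusted p = 0.00150, and -0.99 with adjusted p = 0.067 against matched resting cells), and Ccl20, the ligand of CCR6, by 1.87 ± 0.25 (adjusted p = 0.00450, and 0.14). A single cell gave 79.1% and 41.0% of the Ccl20 UMIs of cycling cells. The eotaxin Ccl11, not on that list, had the largest fall of the genes named by size, from 427 to 12.5 CPM and from 59.6 to 7.62 CPM (-3.84 ± 0.42, adjusted p = 0.00236). It was -2.18 with matched resting cells (adjusted p = 0.026).

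Behind Ccl11 came Dapl1, a gene of early epithelial differentiation, at 139 and 2.26 CPM and at 347 and 40.0 CPM (-3.62 ± 0.40), the calcification inhibitor Mgp (-3.15 ± 0.41), the activin antagonist Fst (-3.08 ± 0.22), Plac8 (-2.93 ± 0.28), the iron hormone Hamp (-2.85 ± 0.34), the lectin Lgals7 (-2.82 ± 0.41) and the interferon-induced Ifit1 (-2.78 ± 0.44). In each of them every cycling value lay below every resting value. Against matched resting cells Ccl11, Mgp (-1.40), Fst (-1.60), Dapl1 (-2.39) and Ifit1 (-1.82) moved by over 1.5 times, and Lgals7 no longer passed (-1.98, adjusted p = 0.061). Hamp was at -0.84 (adjusted p = 0.11) with a gate of 2 UMIs. In replicate 1 the cycling cells held 1 UMI of Lgals7, and 1 cell gave 77.8% of their Plac8 and 53.5% of their Ifit1 UMIs.

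Antigen presentation was lower by a smaller amount. Of 15 genes of MHC class II and costimulation 10 fell and none rose, with a median of -0.47. With resting cells of matched depth 9 fell and the median was again -0.47. The costimulatory ligand Cd80 was at 29.1 and 19.3 CPM in replicate 1 and at 40.8 and 23.3 CPM in replicate 2 (-0.73 ± 0.16, adjusted p = 0.0205). Cd86, the other ligand of CD28, was at 8.75 and 0.566 CPM, the latter from 1 UMI, and at 14.6 and 4.23 CPM (-2.06 ± 0.39, adjusted p = 0.0143). H2-Ob, a chain of the peptide-loading modulator H2-O, fell by 0.76 ± 0.17 (adjusted p = 0.0241) and Pdcd1lg2, a ligand of PD-1, by 0.63 ± 0.16 (adjusted p = 0.0366). All 4 lost their calls with a gate of 2 UMIs (adjusted p = 0.11, 0.074, 0.059 and 0.11), Cd86 and H2-Ob also with matched resting cells (adjusted p = 0.079 and 0.053), and Cd80, H2-Ob and Pdcd1lg2 in DESeq2 (adjusted p = 0.13, 0.15 and 0.24). H2-Aa, an abundant class II chain chosen after its values were seen, went from 6625 to 5555 CPM and from 6995 to 5968 CPM. Its change was -0.24 ± 0.05 (adjusted p = 0.0181, but 0.20 in DESeq2 and 0.079 with a gate of 2 UMIs). The invariant chain Cd74, likewise chosen, was at -0.15 ± 0.05 (adjusted p = 0.0681). When resting cells were matched on UMIs, H2-Aa and Cd74 were at -0.46 (adjusted p = 0.0047) and -0.39 (adjusted p = 0.011). H2-Ab1, the partner chain of H2-Aa, was at -0.38 ± 0.06 and at -0.57 with matched resting cells. Of 11 class I genes 6 fell, among them the peptide transporter Tap2 (-0.97 ± 0.15), the immunoproteasome subunit Psmb8 (-0.87 ± 0.10) and B2m (-0.47 ± 0.05). Tap2 lost its call with matched resting cells (adjusted p = 0.0504).

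The NF-kB route that drives mTEC maturation, with RANK, CD40 and their signalling genes, did not pass in either direction for any of its 16 genes by edgeR, with a median of -0.02. At an unadjusted p of 0.05, 2 were higher and 1 lower, and DESeq2 called 0. Against matched resting cells 3 were lower by edgeR, with a median of -0.14. Relb, the partner of p52, was at 219 and 263 CPM and at 227 and 281 CPM (0.29 ± 0.09, adjusted p = 0.0574). It passed with RLE scaling (0.32), no filter on low counts, a gate of 5 UMIs or no limit on genes (adjusted p = 0.036, 0.042, 0.032 and 0.022). Against matched resting cells it was at 0.045 (adjusted p = 0.74). Foxn1, the master regulator of TEC, chosen after its values were seen, was at 37.2 and 43.0 CPM and at 49.0 and 50.1 CPM (0.11 ± 0.13, adjusted p = 0.584), and at -0.35 against matched resting cells (adjusted p = 0.14).

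**Figure D3:**
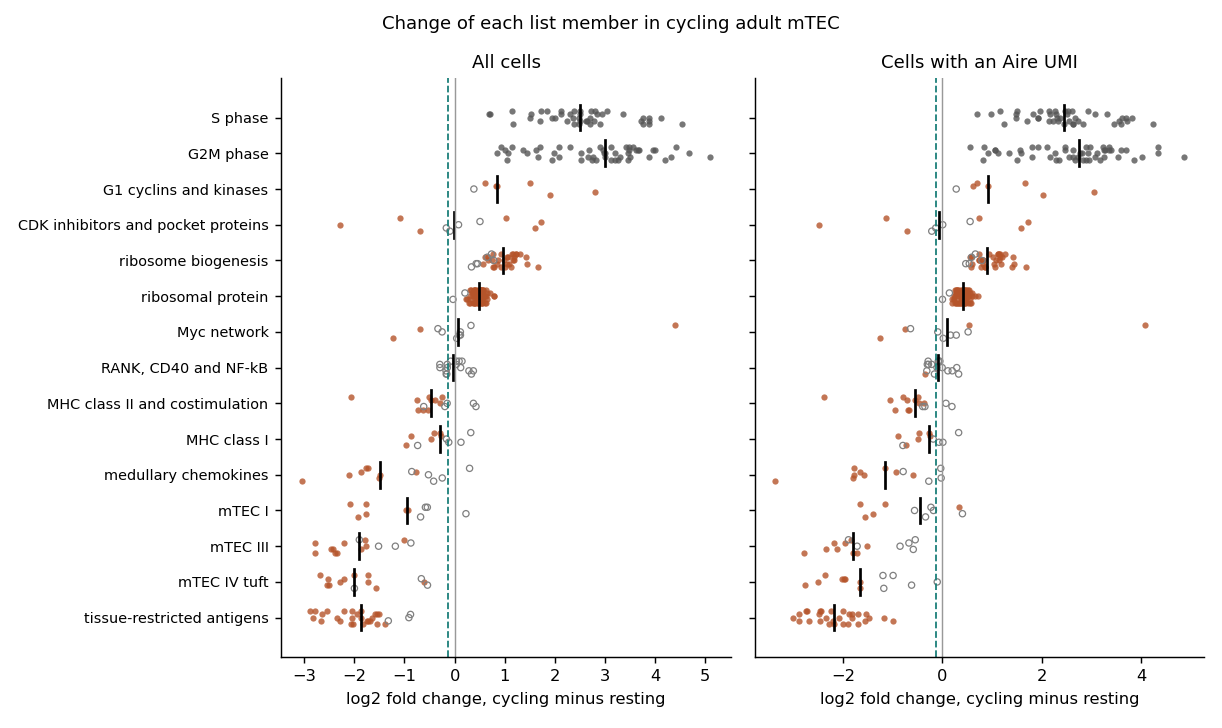
Log2 fold change of cycling against resting adult mTEC for the measured members of 15 gene lists, without Top2a, Mki67 and, in the G1 list, Ccne2, over all cells (left) and over cells with an Aire UMI (right). Grey filled points belong to the S phase and G2M lists and were not tested, filled red points passed an adjusted p of 0.05, open points did not, black bars are list medians and the dashed line is the median of all genes (-0.13 in both). Tissue-restricted antigens have a median of -1.87 over all cells and -2.18 over cells with Aire, and ribosome biogenesis genes 0.96 and 0.90.

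Because cycling and resting cells differ in compartment, the comparison was repeated among cells with at least 1 Aire UMI before thinning, 80 and 474 cycling and 614 and 2582 resting cells. It shares those cells with the comparison above, so that its values stand beside the earlier ones and are not separate evidence. Of 15151 genes tested, 3806 passed (25.1%), with 1862 higher (12.3%) and 1944 lower (12.8%). Of the passing genes, 3804 had the same sign in both libraries, and over all genes 5101 were positive and 7103 negative in both. DESeq2 called 2047, and with matched resting cells 1834 passed, of which 1742 were among the 3806 with the same sign. All 29 tissue-restricted antigens fell, with a median of -2.18 against -1.87 over all cells. DESeq2 called 16 of the 29, and 15 of 27 passed against Aire-bearing resting cells of matched depth, with a median of -1.70. Sst fell by 3.01 ± 0.31 (adjusted p = 0.00150) and Pcp4, a calmodulin regulator of Purkinje cells, by 2.885 ± 0.47 (adjusted p = 0.00720). Ins2, which encodes insulin and is an established Aire target, was at 25.3 CPM in resting cells and 0 in cycling cells of replicate 1 and at 77.8 and 14.0 CPM in replicate 2 (-2.74 ± 0.38, adjusted p = 0.00386, but 0.16 in DESeq2, and -1.50 with matched resting cells).

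Aire itself, which the choice of cells used, was at 704 and 391 CPM in replicate 1 and at 477 and 420 CPM in replicate 2. Fezf2 was at -0.32 ± 0.10 (adjusted p = 0.0651), and fell with matched resting cells (-0.41, adjusted p = 0.022) and among Ccl21a-low cells (-0.40, adjusted p = 0.039). The class II list was again lower, in 11 of 15 genes, with a median of -0.54. Cd80 was at 45.2 and 22.3 CPM and at 45.5 and 23.9 CPM (-0.96 ± 0.15, adjusted p = 0.00598), without overlap of the classes. H2-Aa fell by 0.49 ± 0.07 (adjusted p = 0.00377) and Cd74 by 0.37 ± 0.07 (adjusted p = 0.00986, and 0.14 with no filter on low counts). In Aire-bearing cells Ccl25 was at -3.36 ± 0.39 (adjusted p = 0.00224), and the cytokine Il9 had the largest fall of the genes named by size, from 93.4 CPM to 0 and from 43.4 to 3.29 CPM (-4.295 ± 0.47, adjusted p = 0.00174). It was -2.57 with matched resting cells (adjusted p = 0.015). In replicate 1, 36.7% of the Il9 UMIs of resting Aire-bearing cells came from 1 cell. Ccl21a was at -1.16 ± 0.16 (adjusted p = 0.00413), a call that ended with matched resting cells (adjusted p = 0.12) and when only Ccl21a-low cells were kept.

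**Figure D4:**
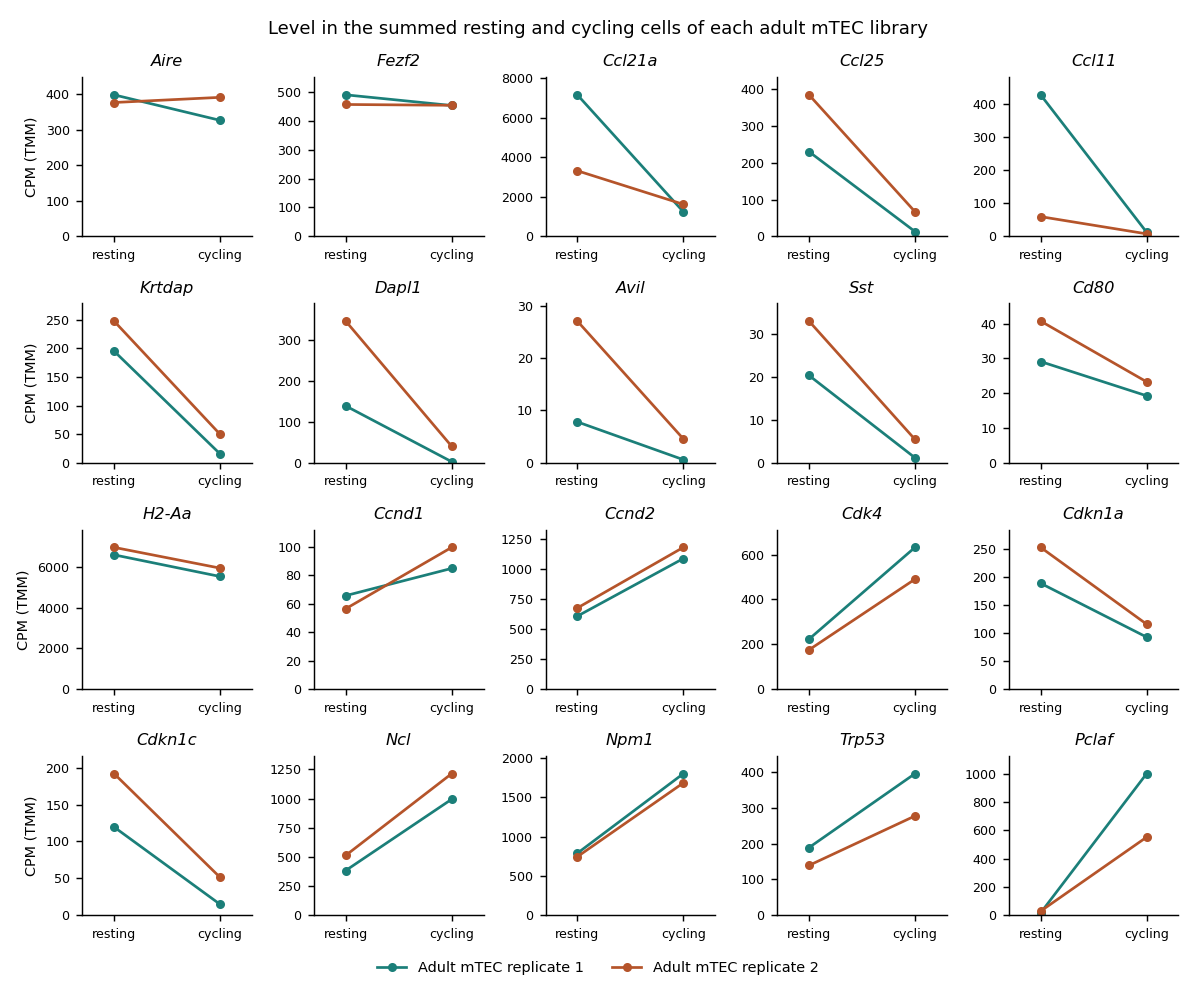
TMM-scaled CPM of 20 genes in the summed resting and cycling cells of adult mTEC replicate 1 and replicate 2, each gene on its own axis from 0. Lines join the classes of a library. Aire moves in opposite directions in the libraries and Fezf2 changes little. Against matched resting cells, which are not drawn, Aire and Fezf2 were at -0.68 and -0.34 (adjusted p = 0.052 and 0.033 by edgeR). Ccl25, Krtdap, Avil and Sst lie lower in cycling cells of both libraries, and Cdk4, Ncl and Npm1 lie higher.

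Growth genes rose with the cycle. Of 36 ribosome biogenesis genes 30 rose, with a median of 0.96. With resting cells of matched depth 19 rose, with a median of 0.68. Dkc1, the pseudouridine synthase dyskerin, was at 24.2 and 82.1 CPM in replicate 1 and at 19.0 and 56.9 CPM in replicate 2 (1.66 ± 0.13, adjusted p = 0.00104). The box C/D snoRNP protein Nop56 rose by 1.45 ± 0.10 (adjusted p = 0.000681) and the H/ACA protein Gar1 by 1.42 ± 0.12 (adjusted p = 0.00123). Nucleolin, Ncl, was at 383 and 995 CPM and at 513 and 1214 CPM (1.31 ± 0.08, adjusted p = 0.000508), and nucleophosmin, Npm1, chosen after its values were seen, at 789 and 1804 CPM and at 745 and 1686 CPM (1.19 ± 0.06, adjusted p = 0.000455, and 0.76 with matched resting cells). Of 77 ribosomal protein genes 75 rose, by a median of 0.48. When resting cells were matched on UMIs, 45 rose, with a median of 0.20. Rpsa was the most raised of them (0.79 ± 0.06, adjusted p = 0.000803, and 0.37 with matched resting cells). Ribosomal proteins made up 19.8% of UMIs in cycling against 15.99% in resting cells of replicate 1, and 25.3% against 20.6% in replicate 2.

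The Myc network did not move as a list, with 1 gene higher, 2 lower and a median of 0.07 over 10 genes. Mxd3, a MAX partner of S phase cells, rose by 4.39 ± 0.50 (adjusted p = 0.00263), while the MYC antagonists Mxd1 and Mxd4 fell by 1.22 ± 0.13 (adjusted p = 0.00203) and 0.69 ± 0.14 (adjusted p = 0.0156, and 0.055 with a gate of 2 UMIs). Among Aire-bearing cells Myc itself was at 41.5 and 55.5 CPM in replicate 1 and at 22.2 and 33.9 CPM in replicate 2 (0.53 ± 0.14, adjusted p = 0.0399, but 0.23 in DESeq2 and with matched resting cells).

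Chromatin and repair genes rose in part. Of 9 genes of DNA methylation and polycomb outside the cell cycle lists 6 rose, including Ezh2, the H3K27 methyltransferase, at 36.7 and 136 CPM and at 35.4 and 117 CPM (1.80 ± 0.12, adjusted p = 0.000624), the maintenance methyltransferase Dnmt1 (1.57 ± 0.19) and the H3K9 methyltransferase Suv39h1 (1.97 ± 0.23). Of 18 DNA damage and repair genes outside those lists 8 rose and 1 fell, among them the checkpoint kinase Chek1 (2.59 ± 0.43) and the crosslink repair gene Fanci (3.28 ± 0.85). Fanci had 2 UMIs in resting cells of replicate 1 and lost its call with matched resting cells and with a gate of 2 UMIs (adjusted p = 0.14 and 0.093). Trp53, which encodes p53 and was chosen after its values were seen, was at 189 and 396 CPM and at 139 and 278 CPM (1.03 ± 0.09, adjusted p = 0.00115). Of 15 chromatin partners of Aire, without the gate gene Top2a, 2 rose and 1 fell. Over all genes 12.5% rose and 11.7% fell, so these partners did not stand out as a list. The poly(ADP-ribose) polymerase Parp1 rose by 1.39 ± 0.16 (adjusted p = 0.00269, and 0.90 with matched resting cells) and the chaperone Dnajc2 by 0.93 ± 0.11 (adjusted p = 0.00292), and the deacetylase Sirt1, which acts on Aire, fell by 0.76 ± 0.11 (adjusted p = 0.00663).

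Marker lists of other states and cells were given the same fit, and their summed levels in this paragraph are CPM without TMM scaling. The sorted cells were epithelial by their markers, whose 6 genes summed to 2691 and 3022 CPM in cycling and to 4720 and 4519 CPM in resting cells. All 13 genes of the putative progenitor list were tested and 5 fell, with a median of -0.66, led by Plet1 (-2.28 ± 0.35, and adjusted p = 0.081 with matched resting cells) and the claudin Cldn4 (-1.82 ± 0.16). Of 6 epithelial genes 5 fell (median -0.59, and 3 with matched resting cells), with the keratin Krt18 lowest at -1.23 ± 0.17. Of 21 dissociation stress genes 10 fell and 1, the chaperone Hsp90aa1, rose by 1.05 ± 0.07. The list's median went from -0.46 to 0.05 with matched resting cells and 0 were then lower, and Klf4 (-0.998) and Btg2 (-1.03) were then at -0.08 and -0.25. Among cTEC markers 4 of 10 fell and 1 rose (1 of 7 and 0 with matched resting cells), and the defining Psmb11 was at 3.14 and 1.13 CPM and at 10.3 and 2.33 CPM. Of 9 thymocyte genes edgeR and DESeq2 called 0, with 0 at an unadjusted p of 0.05. The 12 listed thymocyte genes summed to 94.7 and 21.2 CPM in cycling and to 36.7 and 35.5 CPM in resting cells, and 1 cell gave 66.7% of the Lck and 86.4% of the Cd3g UMIs of cycling cells in replicate 1. B cell, myeloid and erythroid markers fell in 2 of 3, 3 of 6 and 3 of 5 genes, and in 0, 2 and 3 against matched resting cells. The myeloid list summed to 314 and 291 CPM in cycling against 466 and 624 CPM in resting cells, and its Fcer1g was at 47.3 and 4.53 CPM and at 107 and 32.5 CPM (-2.10 ± 0.29). No endothelial or mesenchymal gene passed, of 3 and 5 tested (1 and 1 lower at an unadjusted p of 0.05, 0 by DESeq2). These were Flt1 (-1.57), which passed with RLE scaling, no filter on low counts, a gate of 5 UMIs or no limit on genes (adjusted p = 0.047, 0.0010, 0.0025 and 0.019), and Col1a1 (-1.175), which passed with no filter or a gate of 5 UMIs (adjusted p = 0.026 and 0.018). The part of such cells or their free RNA in the results above was not tested.

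Among themselves, cycling cells were divided by whether their share of G2M or of S phase list UMIs was higher relative to its mean over the cycling cells of the library, which made 52 G2M and 48 S cells in replicate 1 and 279 and 248 in replicate 2. Of these, 20 and 126 lay close to the split, within 0.5 on the log2 scale. Aire UMIs after thinning were found in 62.7% of G2M and 72.9% of S cells in replicate 1 and in 69.4% and 62.3% in replicate 2, which are opposite orders. Ccl21a-high cells were also in opposite orders, at 21.2% of G2M and 14.6% of S cells in replicate 1 and at 14.0% and 20.2% in replicate 2.

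Between those phases 816 of 10869 genes passed (7.51%), 369 higher in G2M (3.39%) and 447 higher in S (4.11%), a count that was 98 with DESeq2. In this fit the spread borrowed across genes weighed as a median of 393 degrees of freedom, against 1 residual degree from the libraries. It was 5.21, 5.65 and 6.72 in the other fits. The small edgeR p-values here therefore measure little of the spread between libraries. The lists that made the split differed as they had to, such as Cenpa, the centromeric histone, at 2.16 and 194 CPM in S and G2M cells of replicate 1 and at 8.89 and 111 CPM in replicate 2. Of the G1 cyclins and kinases outside the S phase list 6 of 7 were higher in S cells (3 by DESeq2), with Ccne1 at 83.3 and 10.5 CPM and at 50.3 and 7.55 CPM. Outside the cell cycle lists 329 genes were higher in G2M and 392 in S cells. E2f1 was lower in G2M by 3.32 ± 0.30, Mybl2 by 1.84 ± 0.24 and Ezh2 by 0.96 ± 0.13 (all 3 also passing in DESeq2, with adjusted p = 0.044 for Ezh2). Of 36 ribosome biogenesis genes 10 were lower in G2M and none higher (2 and 0 by DESeq2), with a median of -0.30, and Nop56 was at 270 and 154 CPM and at 245 and 133 CPM (-0.85 ± 0.11). Of 13 medullary chemokines 8 were higher in G2M cells and 1 was lower (2 and 0 by DESeq2), with a median of 0.30. The called members Ccl21a and Ccl22 turned direction when a library was left out. Ccl20 was at 1.08 and 44.1 CPM in S and G2M cells of replicate 1 and at 16.7 and 143 CPM in replicate 2 (3.22 ± 0.21, adjusted p = 3.43e-40, and 4.71e-07 in DESeq2), with 81.0% and 45.1% of its G2M UMIs from 1 cell. Of 25 tissue-restricted antigens tested 5 were higher and 1 lower in G2M cells (2 and 0 by DESeq2), with a median of 0.36. The casein Csn2, chosen after its values were seen, was at 167 and 282 CPM in S and G2M cells of replicate 1 and at 281 and 528 CPM in replicate 2 (0.85 ± 0.10, adjusted p = 4.155e-13, and 0.0010 in DESeq2). Csn1s2a (1.97 ± 0.33), Tff2 (1.96 ± 0.36) and the trefoil factor Tff3 (1.41 ± 0.19) were higher in G2M cells of both libraries, but in replicate 1 a single cell gave 92.3%, 100% and 95.8% of their G2M UMIs, and of these 3 Tff3 alone passed in DESeq2 (adjusted p = 0.042). Iapp, the islet amyloid peptide, which is not on that list, was at 2.38 ± 0.17 and had 49.9% of its G2M UMIs in replicate 2 from 1 cell, and Reg3g, an intestinal lectin with opposite signs in the libraries, had 96.8% of its S UMIs in replicate 1 from 1 cell.

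The younger cTEC gave the nearest comparison within the series, since adult cTEC held only 7 and 22 cycling cells. A fit over 10 class sums asked which genes had another cycling effect in adult mTEC than in E15.5, E17.5 and NB cTEC. Cycling cells were also deeper in mTEC, with median UMIs of 17987 and 20021 against 9909.5, 14117 and 8761 in E15.5, E17.5 and NB cTEC. Age, lineage and sorting gate differ together between these groups and cannot be told apart. By the paper's methods, embryonic thymi were also dissociated with trypsin and not enriched, while newborn and adult thymi had Liberase and a Percoll step. The levels of this fit were TMM-scaled over all 10 sums and so differ slightly from those above. Of 12887 genes tested 3345 differed (26.0%), 2049 with a higher effect in adult mTEC (15.9%) and 1296 with a lower one (10.1%). With relative log expression (RLE) scaling 22.8% differed and the split was 1315 (10.2%) and 1628 (12.6%), and the median difference over all genes went from 0.06 to -0.06, while 0 of the called genes changed sign. The count was 1687 without E17.5 cTEC, 2128 without E15.5 cTEC and 1889 without adult mTEC replicate 2. The balance of directions turned with either mTEC library left out, to 888 higher and 1887 lower without replicate 1 and to 582 and 1307 without replicate 2, with median differences over all genes of -0.11 and -0.17.

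Ribosome biogenesis and ribosomal protein genes had higher cycling effects in adult mTEC, against resting cells not matched on UMIs. Within adult mTEC, matching took the median changes of these lists from 0.96 to 0.68 and from 0.48 to 0.20. The comparison with cTEC was not repeated with matched cells. Of 36 ribosome biogenesis genes 29 had a higher effect and none a lower one, with a median difference of 0.78 (25 and 0.67 with RLE scaling). Within libraries the median log2 ratio of cycling to resting cells was 0.91 and 0.76 in adult mTEC and 0.16, 0.16 and 0.03 in E15.5, E17.5 and NB cTEC. The summed level of the list went from 2997 to 6271 CPM and from 3045 to 6269 CPM in adult mTEC. In cTEC it went from 3929 to 4571 CPM at E15.5, from 3480 to 4102 CPM at E17.5 and from 3765 to 4085 CPM in NB, so that resting cTEC lay above resting mTEC and cycling mTEC above cycling cTEC. All 77 ribosomal protein genes had a higher effect (75 with RLE scaling), with medians of 0.39 and 0.48 in mTEC and of -0.12, -0.10 and -0.06 in E15.5, E17.5 and NB cTEC.

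Individual genes show the same layout. Ncl went from 435 to 1082 CPM and from 593 to 1374 CPM in adult mTEC and from 869 to 1000 CPM at E15.5, from 674 to 753.5 CPM at E17.5 and from 1010 to 1053 CPM in NB cTEC (difference 1.12 ± 0.08, adjusted p = 0.000114). Srm, spermidine synthase, went from 52.3 to 200.2 CPM and from 51.1 to 145 CPM in mTEC. In cTEC it lay at 63.7 and 57.3, 59.0 and 49.9, and 69.55 and 60.9 CPM at E15.5, E17.5 and NB (1.89 ± 0.14, adjusted p = 0.000115). The nucleotidase-like Nt5dc2 (1.86 ± 0.24), Gm266 (1.80 ± 0.13), Ccdc34 (1.61 ± 0.14) and the glucocorticoid-induced immunophilin Fkbp5 (1.603 ± 0.18) followed.

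G1 cyclins and kinases also had positive differences. Again without Ccne2, 6 of 7 had a higher effect in adult mTEC (5 with RLE scaling), with a median difference of 0.94. Cdk4 went from 253 to 688 CPM and from 202 to 555 CPM in mTEC but from 474 to 639, from 421 to 561 and from 308 to 433.5 CPM in E15.5, E17.5 and NB cTEC (1.01 ± 0.08, adjusted p = 0.000160). Ccnd2 was slightly lower in the cycling cells of each cTEC library, at 361 CPM against 393 CPM in resting cells at E17.5, against its rise in mTEC (0.94 ± 0.07, adjusted p = 0.000160). That rise was 0.16 against matched resting mTEC (adjusted p = 0.11), and cTEC were not matched. Ccnd1 was at 5.29 CPM or below in every cTEC class and differed by 1.01 ± 0.23 (adjusted p = 0.0105). All 4 tested genes of the erythroid list had a higher effect as well, with a median difference of 2.14 (2.02 with RLE scaling), though none by DESeq2, where Hbb-bs (-1.50) and Hbb-bt (-0.73) turned. Without E17.5 cTEC Hbb-bt (-0.35) and Hba-a2 (-0.42) turned, and Hba-a1 was at 2.81 and no longer passed. Their sum was under 0.5 CPM in E15.5 and NB cTEC, went from 519.9 to 45.7 CPM in E17.5 cTEC, and was at 83.6 and 31.4 CPM and at 107 and 57.3 CPM in resting and cycling mTEC. Of 15 genes of the RANK, CD40 and NF-kB list 5 had a higher effect and none a lower one, or 4 and 1 with RLE scaling. The transcription factor Relb and the receptor Cd40 differed by 0.84 ± 0.11 (adjusted p = 0.000802) and 1.18 ± 0.15 (adjusted p = 0.000684), and both were lower in cycling than in resting cells of every cTEC library.

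Mitotic genes, which move with the gate and are described here without a test, had smaller cycling effects in adult mTEC. Of the 54 G2M genes 48 had a negative and 6 a positive difference (50 and 4 with RLE scaling), with median log2 ratios of 2.80 and 2.65 in mTEC against 4.22, 3.90 and 4.53 in E15.5, E17.5 and NB cTEC. The summed level of the list was 1585 and 1779 CPM in resting mTEC and 1372, 1364 and 1405 CPM in resting cTEC, and 9062 and 8198 CPM in cycling mTEC against 14199, 10892 and 13332 CPM in cycling cTEC, so that it was the cycling cells that lay further apart. A gate of 3 UMIs is a smaller share of a deeper cell, and the 4 marker genes Top2a, Mki67, Birc5 and Ube2c summed to 1021 and 1074 CPM in cycling mTEC against 2430, 1612 and 1710 CPM in cycling cTEC. The part of this depth difference in the lower mitotic levels was not tested. Single members could be laid out otherwise, as was Cdc25c, which had the most negative difference of the list. Cdc25c, the phosphatase that activates Cdk1, was at 29.6 and 27.6 CPM in resting mTEC against 1.10 to 1.91 CPM in resting cTEC, and at 50.5 and 54.0 CPM in cycling mTEC against 30.8 to 44.3 CPM in cycling cTEC. Of 10 inhibitors and pocket proteins 5 had a lower effect and none a higher one. Cdkn2c, the INK4 inhibitor p18, had the layout of Cdc25c, going from 61.6 to 114 CPM and from 40.4 to 85.0 CPM in mTEC and from 1.31 to 32.65, from 1.55 to 30.5 and from 0.997 to 56.2 CPM in E15.5, E17.5 and NB cTEC (-3.76 ± 0.27, adjusted p = 0.000114). Cdkn1c, which fell in cycling mTEC, went from 86.8 to 80.2, from 227 to 366 and from 35.0 to 51.9 CPM in those cTEC (-2.59 ± 0.29, adjusted p = 0.000488). Differentiation genes of mTEC such as Krtdap (-4.93 ± 0.35) and Dapl1 (-4.43 ± 0.64) also differed, at 1.69 to 25.6 CPM and 1.01 to 2.55 CPM over the cTEC classes. In each cTEC library the cycling cells held more Krtdap than the resting ones, the opposite of mTEC.

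**Figure D5:**
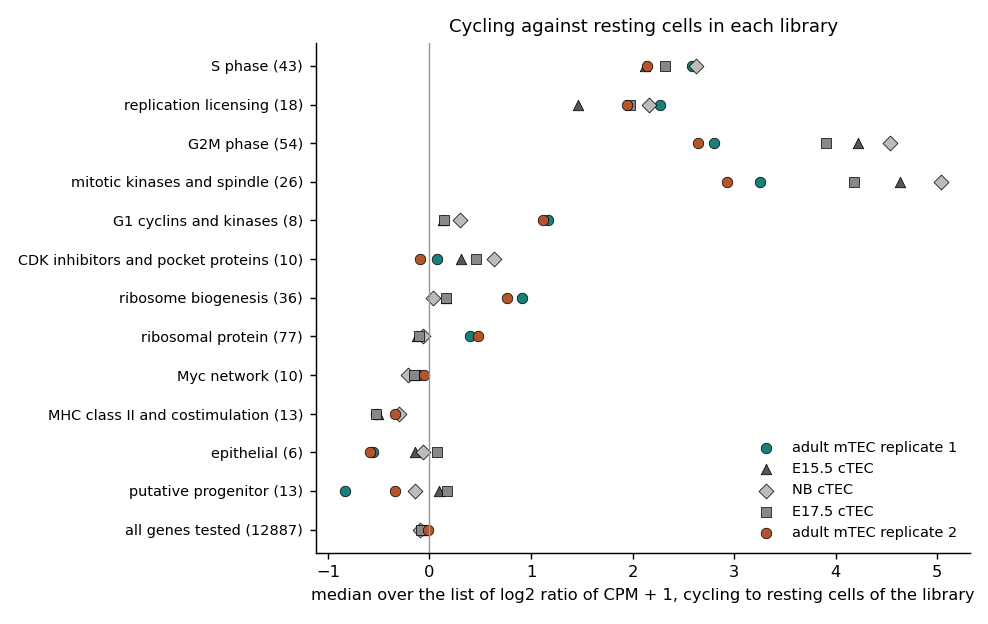
Median log2 ratio of CPM + 1 of cycling to resting cells over the members of each list (number tested in brackets), for 2 adult mTEC and 3 cTEC libraries. Ribosome biogenesis, ribosomal protein and G1 lists lie to the right in both mTEC libraries (0.91 and 0.76 for ribosome biogenesis against 0.03 to 0.16), and the mTEC points of the G2M and mitotic lists lie to the left of those of cTEC.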

How the data were processed

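Per the submitters' processing notes, the authors demultiplexed with bcl2fastq 2.17, ran Cell Ranger 2.0.1 with STAR 2.5.1b on mm10, and deposited raw UMI counts of 10x v2 libraries for each cell and gene, with no normalization. The matrix headers of the second data set name version 3.0.1 instead. From the deposited counts, cells with over 5% mitochondrial UMIs or over 5000 genes were removed, as the study's methods do, leaving 507 to 8350 cells per library, with median UMIs of 3996 to 11386. Clusters that the study removed as contaminants were kept. Counting intervals are exact binomial at 95% and cover counting error only. Shares were taken after thinning to 5000 UMIs, which kept 99 of 100 cycling and 1195 of 1321 resting cells in replicate 1 and 525 of 527 and 3189 of 3703 in replicate 2. Scrublet (in scanpy 1.11.5) at its own threshold marked 5 of 1620 and 0 of 5952 cells, so it did not work and no doublets were removed. As an alternative, chosen after seeing the data, the 24 and 327 highest scores were removed, which held 0 and 24 cycling cells.

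UMIs of the cells of a class were summed per library and tested with edgeR 4.0.16 in R 4.3.3 (quasi-likelihood, TMM, filterByExpr, library as a block, Benjamini-Hochberg adjusted p of 0.05). Cycling and resting sums come from the same library, which is the pair. There is 1 residual degree of freedom (3 for the cTEC comparison), so the spread is mostly borrowed across genes. DESeq2 1.42.0, RLE scaling, no low-count filter, no block, other gates and matched resting cells were the alternatives. In simulated data 92.0% of 200 genes changed by 1 on the log2 scale were recovered among 15436 genes for cycling against resting cells, with 2.65% of calls false. In the Aire-bearing, G2M against S and cTEC comparisons 96.0%, 95.0% and 96.5% of 200 such genes were recovered among 14860, 10384 and 12745 genes, with 5.88%, 8.21% and 8.53% of calls false. The simulated counts followed the fitted dispersion trend, with all other effects removed and only genes with average log2 CPM above 5 changed. These rates therefore do not describe the calls made in the real counts. Ccl21a levels were split at Otsu's threshold per library. Named genes were the rule and placing genes, up to 4 called members of each list by size, and the 10 (5 in other comparisons) largest changes in each direction with average log2 CPM above 5 outside the cell cycle lists. 1 gene named by this rule is not reported here. Members, lists and tests were chosen with earlier results of these data known.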

Additional observations from a re-analysis of the deposited data

Results flagged for a closer look

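The following genes are listed because their cycling effect in adult mTEC differed from that in younger cTEC by the interaction test of edgeR, with values as the log2 effect in adult mTEC minus that in cTEC. They are the inhibitor Cdkn2c (-3.76), the top member of its list, and the genes with the largest differences by the naming rule, namely Srm (1.89), Nt5dc2 (1.86), Gm266 (1.80), Ccdc34 (1.61) and Fkbp5 (1.603) upward and Krtdap (-4.93), Pth (-4.46), Dapl1 (-4.43) and Mgp (-3.70) downward. Pth, which encodes parathyroid hormone, went from 199.7 to 349.7 CPM in E15.5 cTEC and from 51.6 to 325 CPM in E17.5 cTEC, and from 27.6 to 4.19 CPM in adult mTEC replicate 2. In NB cTEC and in adult mTEC replicate 1 it was at or below 0.747 CPM. Mgp was lower in cycling than in resting cells of both mTEC libraries and higher in all 3 cTEC libraries.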

How the results depend on the processing

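The mean cycling share of adult mTEC over the 2 libraries was 7.85%, and it was 11.4% with a gate of 2 UMIs, 5.32% with a gate of 5, 10.3% with no limit on genes and 2.61% with cells thinned to 5000 UMIs, with 6.31% to 9.39% when either library was left out. The mean share of cycling cells with Aire was 66.9%, against 85.0% without thinning, 41.0% with 2 Aire UMIs required and 69.9% with a gate of 2 UMIs. The excess over resting cells was 14.8 percentage points, 5.04 to 24.5 with either library left out, 33.5 and 20.2 in the libraries without thinning, and 6.76 and 3.20 with 2 Aire UMIs required. The count of genes changed in cycling cells (3794) was 2369 in DESeq2, 2258 with a gate of 2 UMIs and 1740 with matched resting cells. Among Aire-bearing cells (3806) it was 2047 in DESeq2 and 1834 with matched resting cells. Between G2M and S cells (816) it was 98 in DESeq2. For the comparison with cTEC (3345) it was 2167 in DESeq2, 2128 without E15.5 cTEC, and 1687 (without E17.5 cTEC) to 2775 with any library left out, including 1889 without adult mTEC replicate 2. The causes were not tested.

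Cycling and resting cells of a library form the pair by construction, and with no replicate block the counts were 201, 221 and 0 for cycling cells, Aire-bearing cells and G2M against S cells (603 at an unadjusted p of 0.05 in the last, by edgeR). With 1 library left out, these 3 comparisons have no residual degree of freedom and give values only.

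Directions turned for Klf4 among Aire-bearing cells with matched resting cells (0.084), and between G2M and S cells for Ccl21a (-0.23 to 0.89 with either library left out), Ccl22 (-1.05 to 1.999) and Reg3g (-4.20 to 0.67). In the comparison with cTEC they turned for the haemoglobin genes Hbb-bs (-1.50 in DESeq2), Hbb-bt (-0.73 in DESeq2 and -0.35 without E17.5 cTEC) and Hba-a2 (-0.42 without E17.5 cTEC). Of 117 named genes of cycling against resting cells, DESeq2 ended the call of 15, a gate of 2 UMIs of 24 and matched resting cells of 32 of 115. Depth limits all shares, since the gate needs UMIs that shallow cells lack.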
